A study of Mus musculus with 15 samples.

Results

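The genes described here encode 55 proteins of the cytosolic ribosome. They were chosen by name: each is the row of the deposited count table whose Ensembl identifier carries the symbol of the protein. All 55 were found, with 1 row each among the 46078 genes of the table. Of these, 33 encode proteins of the large (60S) subunit, among them the 3 proteins of its P stalk, and 22 encode proteins of the small (40S) subunit.

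A ribosome joins ribosomal RNA with about one copy of each ribosomal protein, so a cell needs the members in matched amounts. Their messenger RNAs are short and abundant, and many begin with a C followed by a run of pyrimidines, the 5′ terminal oligopyrimidine (TOP) motif, through which mTORC1 controls their translation. Most mammalian ribosomal protein genes also have processed pseudogenes, intron-less copies of the messenger RNA elsewhere in the genome, whose sequence can be nearly that of the parent gene.

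The libraries are RNA-seq of the retinal pigment epithelium (RPE), the pigmented layer that engulfs the shed tips of photoreceptors, from female mice of postnatal day 14, taken 2 h after lights came on. Mertk is the receptor tyrosine kinase that RPE cells use for this engulfment, and Bai1 (gene symbol Adgrb1) is another receptor for phosphatidylserine, the lipid that marks material to be engulfed. Mertk KO (4 libraries) lacks functional Mertk and Mertk WT (4 libraries) is its wild type, while Bai1 Tg pos (3 libraries) carries a Bai1 transgene on wild-type Mertk and Bai1 Tg neg (4 libraries) has wild-type Mertk without it. Every group has the same strain label, a mix of c57Bl/6J and B6;129-Mertktm1Grl/J. No label gives the promoter or the species of the Bai1 transgene, and none says whether the libraries of a group came from separate mice. The p-values therefore rest on the spread among libraries, some of which may be technical.

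Total counts ranged from 9591129 to 20024507 per library. Levels are in CPM (counts scaled to library size with TMM factors over all 15 libraries) unless a length is named. Mertk stood at 155 to 194 CPM in the Mertk KO libraries and at 234 to 259 CPM in Mertk WT. The labels do not name the deleted exons, so these counts check the genotype only in part. Adgrb1 was measured at 167 to 169.8 CPM with the transgene and at 0 to 0.143 CPM in the first 3 Bai1 Tg neg libraries. The library labelled Bai1 Tg neg 4 had 143 CPM, which goes against its label, and the comparisons that use it are also given without it. RPE markers were abundant in all 15 libraries, Ttr (the retinol carrier transthyretin) at 20724 to 26467 CPM and Rpe65 (the visual cycle isomerase) at 4172 to 6581 CPM. Markers of rod photoreceptors summed to 2245 to 5337 CPM in the 8 Mertk libraries and to 1305 to 2212 CPM in the 7 Bai1 libraries. In bulk RNA, fewer cells of a type and less RNA per cell cannot be told apart.

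The 5′ ends of the members show what they share in sequence. RefSeq promoter windows (GRCm38.p6) matched 46 of the 55 symbols. In 11 of these 46 (23.9%) the annotated start was a C followed by at least 4 pyrimidines, against 813 of 27025 genes (3.01%) in the whole table of windows. Of these 11, 5 are shown here as examples of the run at the start; each gives 25 bases before the start and 25 from it on, on the strand of the gene, with the run from the start in capitals. They lie at chr7:141447626-141447675 (Rplp2, plus strand), chr7:4792940-4792989 (Rpl28, plus), chr2:39005107-39005156 (Rpl35, minus), chr4:86857343-86857392 (Rps6, minus) and chr17:27635220-27635269 (Rps10, minus).
Rplp2: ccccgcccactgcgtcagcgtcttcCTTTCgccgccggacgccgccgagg
Rpl28: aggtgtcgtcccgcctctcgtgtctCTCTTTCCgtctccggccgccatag
Rpl35: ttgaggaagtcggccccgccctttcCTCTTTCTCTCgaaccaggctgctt
Rps6: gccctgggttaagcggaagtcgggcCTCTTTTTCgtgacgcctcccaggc
Rps10: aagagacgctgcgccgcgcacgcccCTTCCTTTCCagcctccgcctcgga
Away from an exact start, a run of 8 pyrimidines within 25 bases of the start was present in 24 of 46 members (52.2%) and in 22.3% of all genes; it can overlap the run at the start. CCGGAAG, the core bound by ETS factors such as GABPA, stood on either strand of 18 members' windows of 300 bases (39.1%, all genes 9.93%). AAGATGG, the core bound by YY1, was in 6 (13%, all genes 7.28%), and its first letters can be the last of the ETS core. AAGATGG also holds ATG, the letters of a start codon. In Rpl7a a match lies after the annotated start, and such matches were not set apart. TATAAA on the given strand was in 3 (6.52%, all genes 9.77%). These matches describe the windows and show no binding.

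Per kilobase of the exon length in the deposited table (RPKM), the highest member was Rplp1, a lateral protein of the P stalk that recruits elongation factors, at 373 ± 77.0 (SD, n = 15). Next came Rps15, a protein of the 40S head, at 256 ± 26.0, and Rpl8, which lies near the peptidyl transferase centre, at 249 ± 25. Rps12 of the 40S beak followed at 169 ± 41.6 and Rpl4, which lines the exit tunnel, at 164 ± 12.6. At the low end were Rpl24 at 4.37 ± 1.13, Rps19 at 12.3 ± 1.45, Rpl12 at 12.4 ± 2.03, Rps20 at 15.1 ± 1.81 and Rpl34 at 15.7 ± 4.18. The median member was at 62.7 RPKM, and the highest stood 85.4-fold above the lowest and 30.3-fold above the second lowest. Part of this order follows the length that was used: per kilobase of the main annotated transcript Rps19 moved from the 54th to the 33rd place at 90.8 RPKM, whereas Rplp1 stayed the 1st and Rpl24 the 55th, at 370.1 and 6.64 RPKM. Across members the 2 orders had a Spearman correlation of 0.58, a description over genes that share libraries and depth.

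**Figure D1:**
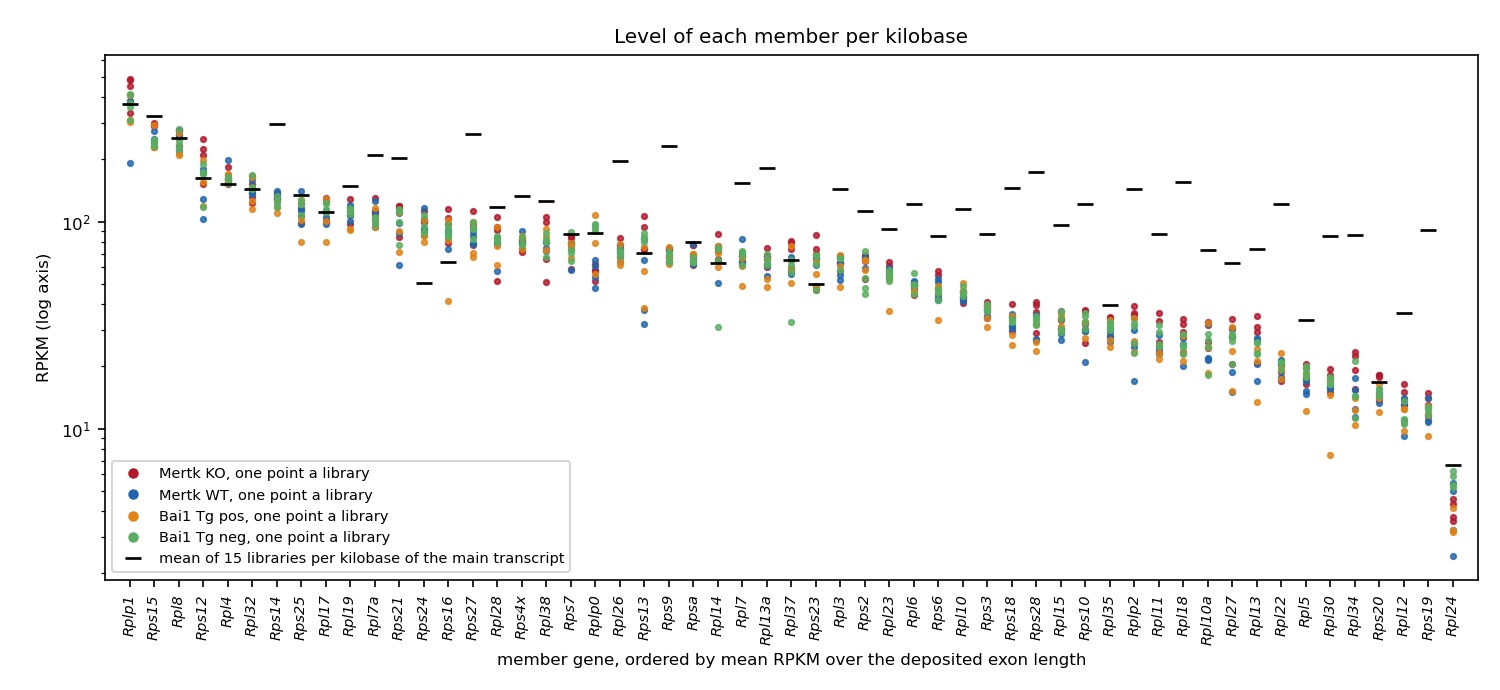
RPKM on a log axis for each of the 55 members, ordered by the mean over the deposited exon length; each point is a library, coloured by group, and black bars give the mean per kilobase of the main transcript. Rplp1 is the highest member (373 RPKM) and Rpl24 the lowest (4.37 RPKM), and the colours of the groups overlap for nearly all members.

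Rpl24, a 60S protein at the interface of the subunits, had 1061 counts over the 15 libraries, 2.51 to 6.42 CPM in each. Of its exon bases (chr16:55966275-55971435), 47.0% are shared with the overlapping gene Gm28037, and reads that overlap more than 1 gene were not assigned by the counter. Gm28037 itself had 0 counts, and 45.1% of the counts summed over Rpl24 and its copies lay in the copies. The part of either in its low level was not tested. In all, 22 members share some exon bases with another gene and 5 share over 20%: Rpl35 (66.2%, with Wdr38), Rpl24, Rpl13a (37.3%, with 3 small nucleolar RNA genes and 2 others), Rps25 (30.0%, with Ccdc84) and Rpl5 (26.7%, with Fam69a and Snord21).

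Together the members held 0.560 ± 0.0407% of all counts in Mertk KO, 0.518 ± 0.00895% in Mertk WT, 0.502 ± 0.0607% in Bai1 Tg pos (n = 3), whereas Bai1 Tg neg had 0.540 ± 0.0186% (SD, n = 4 where not given), or 0.545 ± 0.0196% without the library labelled Bai1 Tg neg 4 (n = 3). In the 4 Mertk KO libraries the share was 0.503%, 0.595%, 0.560% and 0.581%, and in Mertk WT 0.531%, 0.513%, 0.516% and 0.511%. The 3 Bai1 Tg pos libraries had 0.442%, 0.501% and 0.564%, and the Bai1 Tg neg libraries 0.528%, 0.540%, 0.566% and 0.526%. The groups overlap, and the widest gap between any 2 libraries, Mertk KO 2 against Bai1 Tg pos 1, crosses the 2 sets. Both subunits had the same order of libraries in Mertk KO: 60S genes held 0.308 to 0.362% and 40S genes 0.195 to 0.234% of the counts, lowest in Mertk KO 1 and highest in Mertk KO 2.

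Of the 55 members, 36 had their highest level in a Mertk KO library and 28 their lowest in a Bai1 Tg pos library. Single libraries made up most of both counts: 25 members were highest in Mertk KO 2, and 25 were lowest in Bai1 Tg pos 1. Such counts over all genes are not given here, so these cannot be read as particular to the members. Taking each gene relative to its own mean over the 15 libraries, the median member stood 0.23 (log2) above it in Mertk KO 2, 0.16 in Mertk KO 4 and 0.11 in Mertk KO 3, but -0.11 in Mertk KO 1. In Mertk WT it was 0.02, -0.04, -0.01 and -0.06. The Bai1 Tg pos libraries spread from -0.28 through -0.11 to 0.11, and Bai1 Tg neg lay at -0.02, 0.03, 0.11 and 0.01. Other coding genes with a main transcript under 1000 bases (786 genes) were also highest in Mertk KO 2 and 4 (0.12 in both) and lowest in Bai1 Tg pos 1 (-0.15), and 3650 coding genes of 4000 bases or more stayed between -0.04 and 0.05. Genes of mitochondrial ribosomal proteins gave 0.11 in Mertk KO 2 and -0.11 in Bai1 Tg pos 1. The part of transcript length in the level of the members was not tested.

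**Figure D2:**
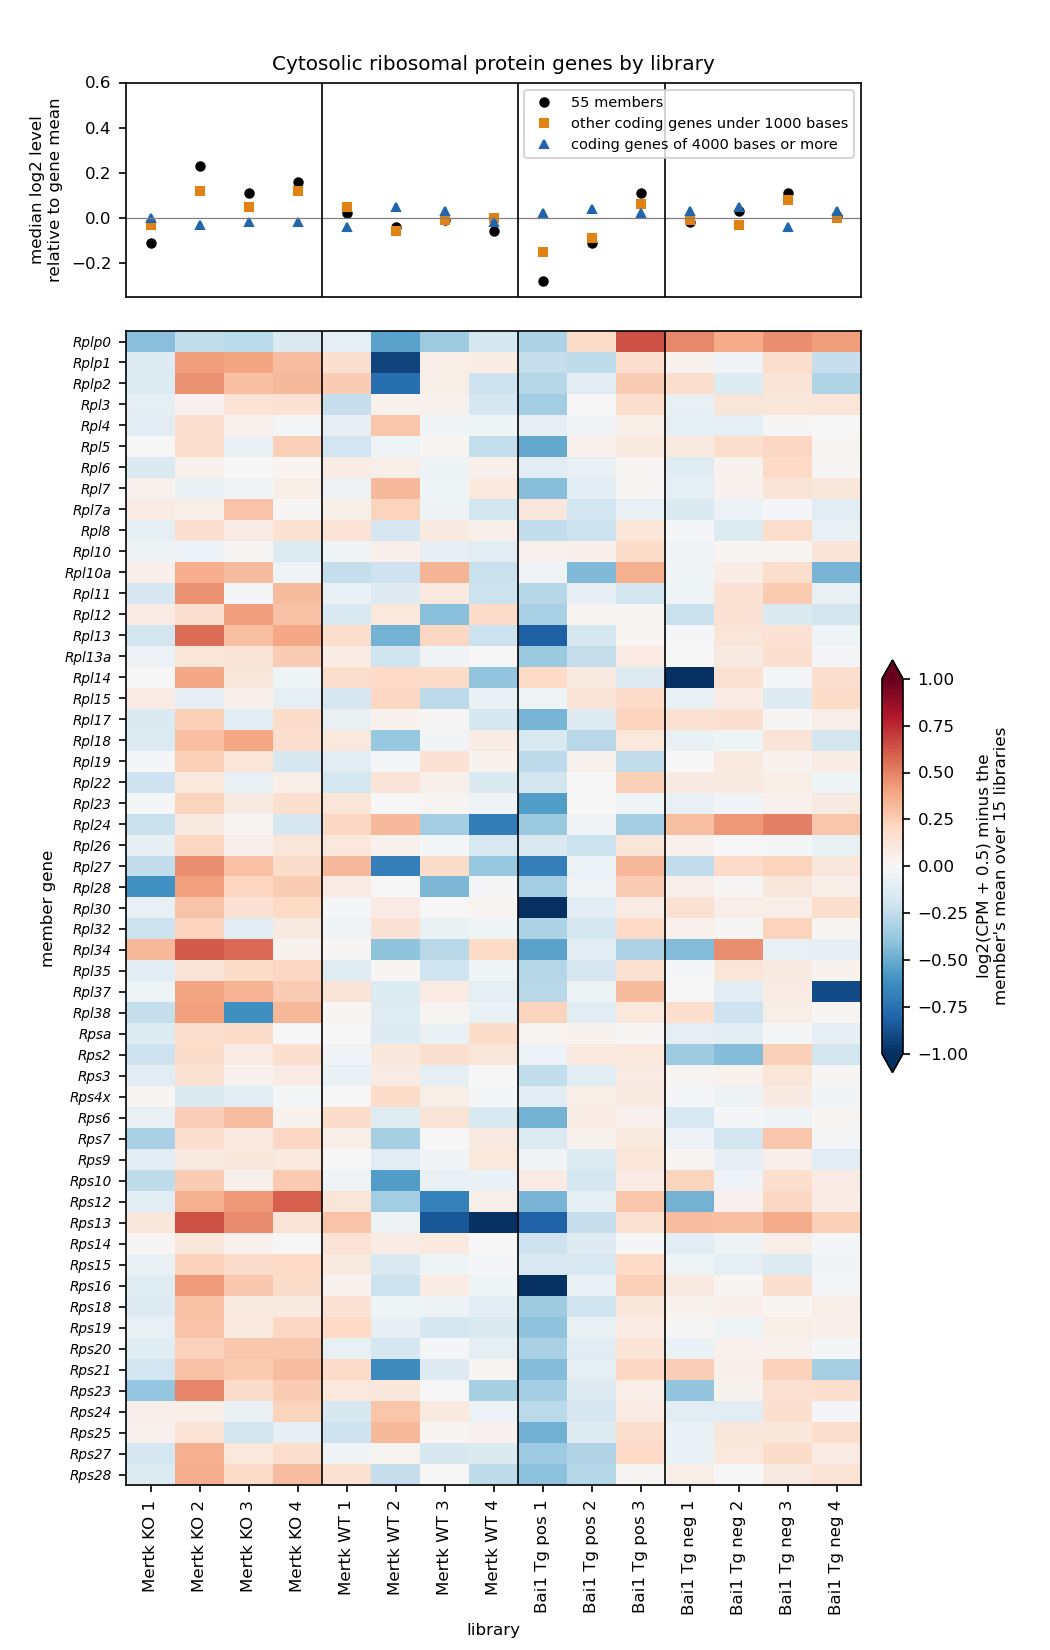
Lower panel: log2(CPM + 0.5) of each member minus its mean over the 15 libraries, red above and blue below. Upper panel: the median of such values over the 55 members (circles), 786 other coding genes under 1000 bases (squares) and 3650 of 4000 bases or more (triangles). The column of Mertk KO 2 is mostly red and that of Bai1 Tg pos 1 mostly blue, and the top row, Rplp0, is blue in all Mertk libraries and red in 6 of the 7 Bai1 libraries, the exception being Bai1 Tg pos 1.

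The steadiest members over all libraries were Rpl10, a protein of the late 60S joining step, with a coefficient of variation of 6.01% (83.3 to 104 CPM), Rps4x, an X-linked 40S protein, with 6.13%, and Rpl6 with 6.23%. Most variable were Rps13, of the 40S platform, with 30.3% (18.6 to 61.6 CPM), Rplp0 with 27.6% and Rpl34 with 26.6%. The median member had 12.8%, beside 9.04% for the 1895 other tested genes whose mean lay between the quartiles of the members.

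Mertk KO was set against Mertk WT to ask which transcripts differ when the engulfment receptor is lost. With edgeR's quasi-likelihood test no member passed an adjusted p of 0.05, against 30 of 13447 genes tested (0.223%), and DESeq2 called 0 members as well. At an unadjusted p under 0.05 there were 5 members, all higher in Mertk KO, beside 5.58% of all genes tested. Of the 55, 45 had a fold change above 0 (81.8%, all genes 49.7%) with a median log2 fold change of 0.12 (all genes 0.00); the SD of the median member between libraries of a group was 0.105. The median was 0.09 for 60S genes and 0.14 for 40S genes. It was 0.18 without Mertk KO 1 and 0.07 without Mertk KO 2. For no member did all 4 Mertk KO libraries lie above all 4 of Mertk WT (1.61% of genes tested) or below them (1.94%).

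Rpl34, a 60S protein (chr3:130726831-130730398), had the smallest p. It stood at 50.6, 61.8, 59.6 and 41.2 CPM in Mertk KO, against 40.4, 30.2, 33.0 and 46.1 CPM in Mertk WT. The highest wild-type library lay above the lowest knockout library, and the log2 fold change of 0.51 ± 0.156 (SE) had an adjusted p of 0.542 with edgeR. Rps12 stood at 72.2, 100.2, 106 and 119 CPM in Mertk KO, against 85.3, 61.5, 48.9 and 81.4 CPM in Mertk WT (log2 fold change 0.52 ± 0.202, adjusted p = 0.822 with edgeR). Rps20, of the 40S head, gave 56.4, 72.2, 74.2 and 73.9 CPM against 58.4, 54.2, 61.0 and 57.2 CPM (0.26 ± 0.0977, adjusted p = 0.758 with edgeR), so that only Mertk KO 1 lay among the wild-type libraries. Rpl37 (0.25) and Rpl12 (0.29) were the other members with an unadjusted p under 0.05. On the lower side the smallest p belonged to Rps4x at -0.12 ± 0.0759, Rpl7 at -0.10 ± 0.0901 and Rpl6 at -0.06 ± 0.0717, none with an adjusted p under 0.905 in edgeR.

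The P stalk is the flexible arm of the 60S subunit that binds translation factors: Rplp0 forms its base and carries Rplp1 and Rplp2. Rplp1 stood at 165, 241, 238 and 224 CPM in the knockout libraries and at 202, 94.8, 189 and 190.3 CPM in the wild type. Rplp2 gave 54.0, 81.1, 73.2 and 74.5 CPM against 70.8, 35.0, 61.7 and 51.3 CPM. Both were lowest in Mertk WT 2, which also had the highest sum of rod markers (5337 CPM); the part of rod RNA in these levels was not tested. Log2 fold changes were 0.36 ± 0.244 and 0.37 ± 0.211, with edgeR adjusted p-values of 0.908 and 0.905, and 0.01 for Rplp0.

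**Figure D3:**
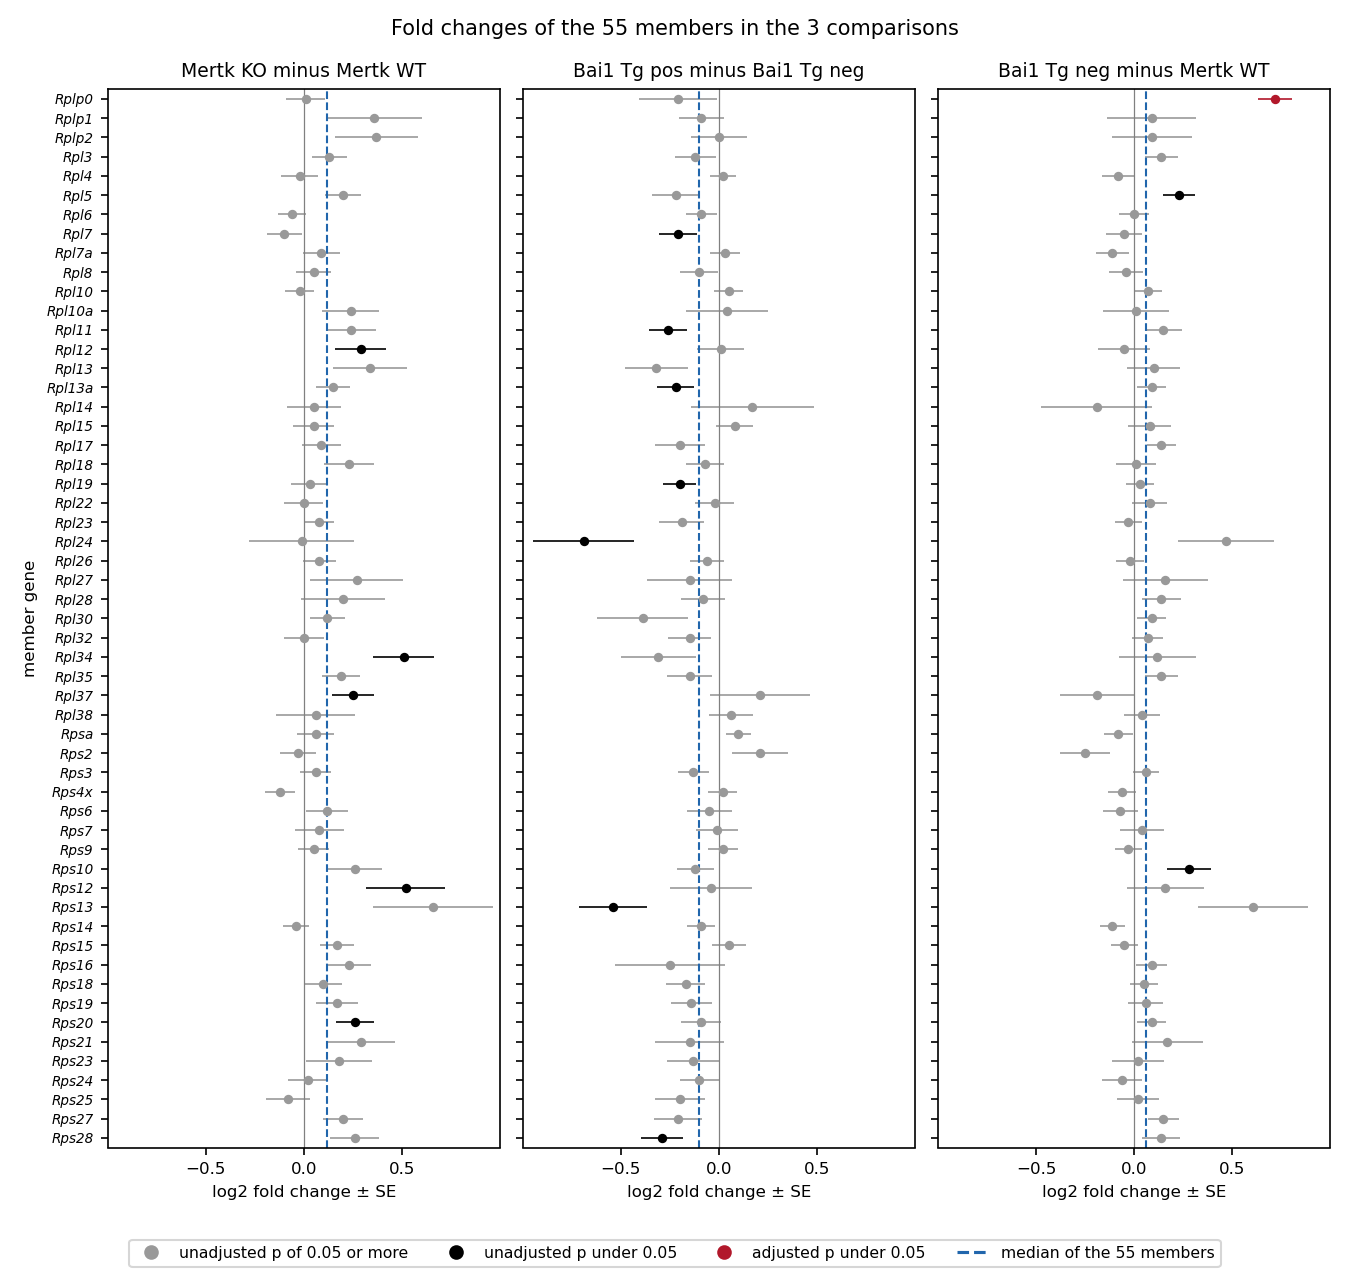
Log2 fold change ± SE of each member in the 3 comparisons, from edgeR; grey points have an unadjusted p of 0.05 or more, black points one under 0.05 and the red point an adjusted p under 0.05. The dashed line is the median member, at 0.12, -0.10 and 0.06 from left to right, and Rplp0 in the right panel (0.72) is the only red point.

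Bai1 Tg pos was set against Bai1 Tg neg to ask what added Bai1 changes on wild-type Mertk. No member passed the threshold in edgeR, with 2 of 13855 genes called (0.0144%), and DESeq2 called 0 members too. At an unadjusted p under 0.05 there were 7, beside 5.18% of all genes, each of them lower in Bai1 Tg pos. Here 14 of 55 members lay above 0 (25.5%, all genes 49.9%), with a median log2 fold change of -0.10 and an SD of 0.143 between libraries. Without the library labelled Bai1 Tg neg 4, again 0 members were called (5 of 13562 genes, 0.0369%), 11 lay above 0 and the median was -0.11. The median rested on single libraries: it was -0.03 without Bai1 Tg pos 1, the library with the lowest members, and -0.22 without Bai1 Tg pos 3.

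Rps13 (chr7:116331507-116334190) gave 22.3, 33.5 and 43.8 CPM in Bai1 Tg pos, against 48.8, 48.6, 51.1 and 46.5 CPM in Bai1 Tg neg. The groups did not overlap, and the log2 fold change was -0.54 ± 0.173 with an adjusted p of 0.948 in edgeR. It passed the threshold without Bai1 Tg pos 3 (-0.79, adjusted p = 0.0269 in edgeR) and with no filter on low counts (-0.55, adjusted p = 0.000739 in edgeR), and in no other alternative. In Mertk WT the same gene, without its copies, spread from 18.6 to 48.1 CPM, a range that covers all 3 Bai1 Tg pos values. Mertk WT 3 and 4 had the fewest Rps13 counts of that group (326 and 178). They had 12.9 and 12.3 CPM of Rps13-ps2, a copy identical over 453 bases, against 1.55 and 0.592 CPM in Mertk WT 1 and 2. Among the Bai1 libraries this copy was highest in Bai1 Tg pos 2. Once the counts of its copies were added, the log2 fold change of Rps13 was -0.40 ± 0.165 (adjusted p = 0.952 in edgeR). Rpl11, which binds Mdm2 when ribosome assembly fails, stood at 58.6, 67.6 and 63.0 CPM against 69.4, 78.9, 85.8 and 67.7 CPM, also without overlap; its log2 fold change of -0.26 became -0.15 once the counts of its copies were added. Rpl24 was the third such member, at 3.27, 4.28 and 3.33 CPM against 5.51, 6.09, 6.42 and 5.39 CPM, and its log2 fold change of -0.69 ± 0.258 became 0.20 once the counts of its copies were added. These members stand beside 3.25% of genes tested with every Bai1 Tg pos library below. In the other direction only Rpsa, a 40S protein also known as the laminin receptor, did not overlap, at 129, 130.1 and 128 CPM against 119, 118, 125 and 119 CPM, beside 3.05% of all genes. Without the library labelled Bai1 Tg neg 4 the same 3 members lay below (5.25% of genes tested), and Rpl10 joined Rpsa above (5.04%).

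Rps28, at the 40S mRNA exit, had a log2 fold change of -0.29 ± 0.107 and Rps2, of the 40S entry channel, one of 0.21 ± 0.144, with edgeR adjusted p-values of 0.948 and 0.958. Rpl15 was at 0.08 ± 0.0935 and at -0.03 with copies added. The values without the library labelled Bai1 Tg neg 4 were -0.56 for Rps13, -0.72 for Rpl24, -0.31 for Rpl11, -0.27 for Rps28, 0.20 for Rps2 and 0.09 for Rpsa.

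The 2 effects share no library, and their difference was tested in a fit of all 15. No member passed in edgeR, the tool used for this contrast (15 of 14520 genes called, 0.103%). At an unadjusted p under 0.05 there were 11 members, all with the Mertk effect above the Bai1 effect, beside 7.53% of all genes. The difference was above 0 for 48 of 55 members (87.3%, all genes 50.4%), with a median of 0.25 on the log2 scale. The smallest p-values belonged to Rps28 (0.56 ± 0.174, adjusted p = 0.356 in edgeR), Rpl34 (0.83 ± 0.276) and Rpl11 (0.50 ± 0.174). On the other side stood Rps4x (-0.14), Rps2 (-0.24) and Rpl10 (-0.07). Without the library labelled Bai1 Tg neg 4, 0 members passed (0.118% of genes called), 48 of 55 again lay above 0 with a median of 0.24, and Rps28, Rpl34 and Rpl11 were at 0.53, 0.86 and 0.55.

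Other genes of the translation machinery were counted from fixed lists. Of 25 further cytosolic ribosomal protein genes, 22 lay above 0 in Mertk KO with a median of 0.11, and 6 in Bai1 Tg pos with a median of -0.05; none was called in either. Of 78 mitochondrial ribosomal protein genes tested, 60 and 35 lay above 0, with medians of 0.08 and -0.01, and 0 were called. Paralogs such as Rpl22l1 had 3 of 5 and 4 of 6 tested genes above 0. Translation initiation factors ran the other way in Mertk KO, with 10 of 35 above 0 and a median of -0.06. Eif3j1, a loosely bound subunit of eIF3, was the only gene of these lists to pass in either comparison, lower in Mertk KO by -2.01 ± 0.319 (log2, adjusted p = 0.0214 in edgeR). It stood at 3.30, 1.01, 1.66 and 3.01 CPM against 8.04, 8.12, 11.7 and 8.56 CPM. It has a near-identical copy, so its count is uncertain. The parts of Mertk loss, of the mixed strain around the Mertk allele and of this copy in its level were not tested. Elongation and termination factors had 6 of 11 above 0 in both comparisons, and ribosome biogenesis factors 18 and 20 of 40. For genes that control TOP messenger RNAs and mTORC1 the numbers were 12 and 14 of 21, and for targets of p53, which ribosomal stress activates, 7 and 7 of 12. Of these last 4 lists, no gene was called in either comparison, and their medians lay between -0.02 and 0.04.

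Markers of other cells in the preparation were counted in the same way. In Mertk KO and Bai1 Tg pos no marker of any cell type was called. Rod markers had 1 of 17 genes above 0 in Mertk KO (median -0.59) and 16 of 17 in Bai1 Tg pos (median 1.12), with summed levels of 2245 to 2968 CPM against 2283 to 5337, and of 1558 to 2212 CPM against 1305 to 1699.8. RPE markers had 7 of 14 and 7 of 15 above 0, Müller glia and astrocyte markers 5 of 6 and 4 of 6, and cone markers 2 of 8 and 3 of 7. Rlbp1 is in both the RPE and the Müller glia list, and the glial markers Gfap and Aqp4 did not pass the filter on low counts. Microglia and macrophage markers had 2 of 2 and 1 of 2 above 0, endothelial markers 0 of 3 and 1 of 3, stroma and smooth muscle markers 5 of 8 and 5 of 7, and erythroid markers 1 of 2 and 0 of 2. Only genes that passed the filter on low counts are counted, out of 12 microglia and macrophage, 9 endothelial, 11 stroma and 5 erythroid genes listed. The macrophage genes tested were Cd68 and Csf1r. Stroma and smooth muscle markers summed to 246 to 449 CPM in Bai1 Tg pos and to 195 to 239 CPM without the transgene, with no overlap. Their largest fold changes, for the smooth muscle genes Myh11 (5.46) and Tagln (2.76), came from Bai1 Tg pos 1 and 2, with 28.4 and 97.1 CPM of Myh11 against 0.376 CPM in Bai1 Tg pos 3. Endothelial markers summed to 7.85 to 11.5 CPM in Mertk KO, below the 13 to 22.3 CPM of the wild type. The part of other cells' RNA in the members' values was not tested.

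The members' shift was set beside transcript length. In Mertk KO, coding genes with a main transcript under 1000 bases, members left out, had a median log2 fold change of 0.07 (757 genes, 67.2% above 0), those of 1000 to 2000 bases 0.03, and those of 4000 or more -0.02 (3576 genes, 43.2% above 0). The 40 members under 1000 bases had 0.14 and the 15 longer ones 0.06. In Bai1 Tg pos the order was turned: -0.05 under 1000 bases, 0.00 at 2000 to 4000 and 0.01 at 4000 or more, with -0.09 and -0.12 for the short and long members. What part length has in the members' shift was not tested.

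Bai1 Tg neg and Mertk WT are both labelled as wild type for Mertk and without added Bai1, although 1 of the 4 Bai1 Tg neg libraries goes against its label, and their comparison shows how far the 2 control sets differ. The group and the first tag number of the labels (12 against 17 or 21) cannot be told apart. One member passed the threshold: Rplp0 was higher in Bai1 Tg neg by 0.72 ± 0.0880 on the log2 scale, 1.65-fold (adjusted p = 0.00378 in edgeR), among 58 of 13459 genes called (0.431%). DESeq2 also called 1 member. Without the library labelled Bai1 Tg neg 4, Rplp0 was again the only member called (0.72, adjusted p = 0.0142 in edgeR, 0.204% of genes called). At an unadjusted p under 0.05 there were 3 members, all higher, beside 7.99% of all genes, and 37 of 55 lay above 0 (67.3%, all genes 50.6%) with a median of 0.06. All libraries of Bai1 Tg neg lay above those of Mertk WT for Rplp0, Rpl5 and Rps10 (2.93% of genes tested) and below for no member (2.8%). Rpl5, which with Rpl11 and the 5S ribosomal RNA forms a particle that binds Mdm2, was at 0.23 ± 0.0825 and Rps10 at 0.28 ± 0.112, with edgeR adjusted p-values of 0.406 and 0.494. With copies added Rpl5 was at 0.13 and Rps10 at 0.28. On the lower side were Rps2 (-0.25 ± 0.128), Rps14 (-0.11 ± 0.0656) and Rpl7a (-0.11 ± 0.0855). Without the library labelled Bai1 Tg neg 4, again 37 of 55 lay above 0 with a median of 0.06 and 3 had an unadjusted p under 0.05. Rpl5, Rps10, Rps2, Rps14 and Rpl7a were then at 0.27, 0.29, -0.25, -0.12 and -0.10. Rps13 joined the 3 members without overlap above Mertk WT (4.68% of genes tested), and again 0 lay below (4.33%). Rod markers had fold changes below 0 for 17 of 17 genes in the same comparison, with a median of -3.73 and 1 gene called, Rom1; their summed level was 1305 to 1699.8 CPM in Bai1 Tg neg and 2283 to 5337 CPM in Mertk WT. Cone markers lay below 0 in 7 of 7 genes tested (median -1.75), and Guca1a, a photoreceptor calcium sensor, was called lower (-3.39, adjusted p = 0.0175 in edgeR). Cd68, a macrophage marker, was called higher (1.11, adjusted p = 0.0263 in edgeR). Csf1r, the only other one of the 12 listed microglia and macrophage markers that was tested, was at -0.07. Microglia and macrophage markers summed to 621 to 651 CPM in Bai1 Tg neg and to 637 to 707 CPM in Mertk WT. RPE markers had a median of 0.02. Without the library labelled Bai1 Tg neg 4, Cd68 was called (adjusted p = 0.0294 in edgeR) and Rom1 and Guca1a were not (0.106 and 0.0783). The part of RNA from photoreceptors or macrophages in the level of Rplp0 was not tested.

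Rplp0 (chr5:115559467-115563727) gave 86.2, 97.0, 95.5 and 104 CPM in Mertk KO, against 108, 79.3, 90.0 and 102 CPM in Mertk WT. In Bai1 Tg neg it gave 161, 149, 159.5 and 154 CPM, and in Bai1 Tg pos 92.7, 131 and 179 CPM. Bai1 Tg pos 1 thus lay among the Mertk libraries, and the other 6 Bai1 libraries lay above all 8 of them. Its 2 most counted processed pseudogenes ran the opposite way. Gm8730 (chr8:102864779-102865853, minus strand) stood at 40.6 to 66.6 CPM in the Mertk libraries, at 50.4 CPM in Bai1 Tg pos 1 and at 20.4 to 27.6 CPM in the other 6. Gm9625 (chr13:67810246-67811200, plus strand) stood at 22.0 to 26.2, at 19.9 and at 10.9 to 14 CPM. In the comparison of the control sets both were called lower (adjusted p = 0.00157 for each in edgeR).

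Stretches of the coding sequences show how close these loci are. Over the 951 coding bases, Gm8730 differs from Rplp0 at 12 and Gm9625 at 24. The 100 bases from coding position 300 to 399 are given for each, read from the GENCODE M21 transcripts (GRCm38) on the coding strand, with capitals at positions where the 3 are not alike.
Rplp0: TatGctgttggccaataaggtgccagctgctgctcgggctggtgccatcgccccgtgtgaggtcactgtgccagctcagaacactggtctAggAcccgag
Gm8730: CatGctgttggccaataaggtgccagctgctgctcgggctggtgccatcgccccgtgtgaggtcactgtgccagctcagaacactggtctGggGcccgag
Gm9625: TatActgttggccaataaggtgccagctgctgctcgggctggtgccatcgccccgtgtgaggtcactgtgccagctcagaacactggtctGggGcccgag
Counts of Rplp0 and its copies (4 in the table) were then added. The summed level was 167, 190.0, 184 and 179 CPM in Mertk KO, and the wild-type libraries had 191, 149, 172 and 180.5 CPM. With the Bai1 transgene it was 169, 169 and 221 CPM, and Bai1 Tg neg had 198, 184, 202 and 189 CPM. The control sets then overlapped, the log2 difference was 0.15 ± 0.0790 (adjusted p = 0.674 in edgeR), and the coefficient of variation over all libraries went from 27.6% to 9.31%. The copies held 46.9 ± 3.35% of the sum in Mertk KO, 45.5 ± 2.16% in Mertk WT and 19.3 ± 1.16% in Bai1 Tg neg (n = 4 each), or 19.6 ± 1.29% without the library labelled Bai1 Tg neg 4 (n = 3). In Bai1 Tg pos they held 45.3%, 22.6% and 18.7%.

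**Figure D4:**
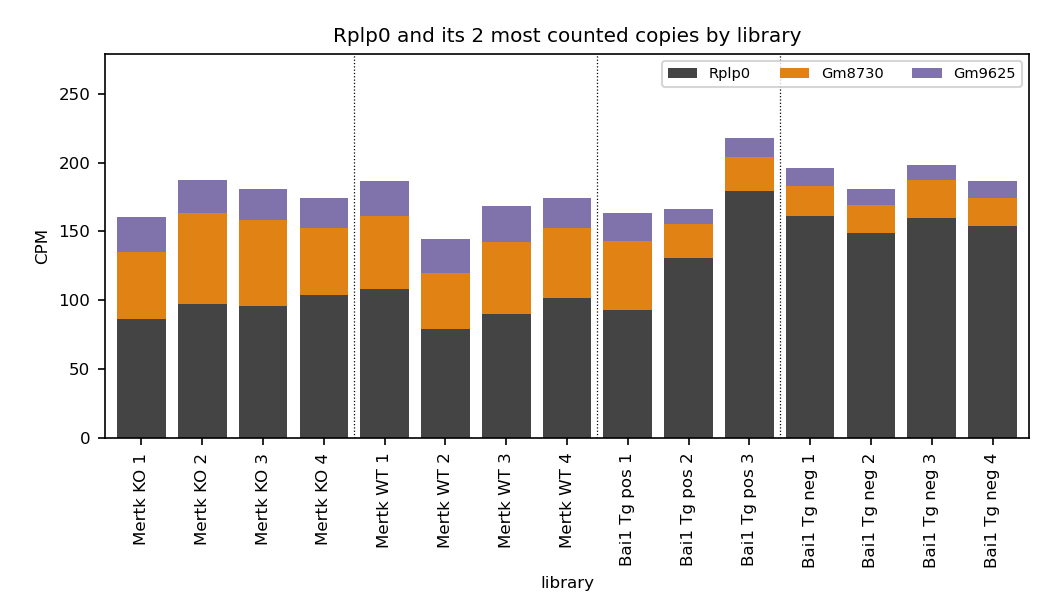
CPM of Rplp0 (dark), Gm8730 (orange) and Gm9625 (purple) stacked for each of the 15 libraries, with dotted lines between groups. The dark part is 79.3 to 108 CPM in the 8 Mertk libraries and 92.7 CPM in Bai1 Tg pos 1 and at least 131 CPM in the other 6, while the whole bars differ far less.

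The same split between a member and a copy recurred at other loci, from library to library within groups. Rpl14, a 60S protein (chr9:120571517-120574653), stood at 28.8 CPM in Bai1 Tg neg 1 and at 47.1 CPM in Mertk WT 4, its 2 lowest libraries, and at 56.5 to 81.2 CPM in the other 13. Its only copy, Rpl14-ps1 (chr7:45324941-45325651), stood at 38.2 and 18.2 CPM in these 2, at 18.7 CPM in Bai1 Tg neg 3, 15.7 in Mertk KO 4 and 15.0 in Bai1 Tg pos 3, and at 1.18 to 2.69 CPM in the remaining 10. No library lay between these ranges. Summed, the pair gave 63.1 to 83.3 CPM, and the coefficient of variation went from 19.5% to 7.40%. Rpl19, a 60S protein with a long helix toward the 40S subunit (chr11:98026710-98030492), had its 4 lowest levels of 92.8, 93.6, 99.6 and 103 CPM in Bai1 Tg pos 1, Bai1 Tg pos 3, Mertk KO 4 and Mertk WT 1. Those libraries had 15.5, 20.3, 26.2 and 24.5 CPM of Rpl19-ps11 (chr8:19492906-19493623), and the other 11 had 1.87 to 3.57 CPM.

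These copies differ from their parents at very few bases. Rpl14-ps1 differs at 4 of the 651 coding bases of Rpl14, and Rpl19-ps11 at 1 of the 588 of Rpl19. The stretches below run over coding positions 326 to 425 (Rpl14) and 191 to 290 (Rpl19), with the differing bases in capitals. Reads that fall wholly between such bases are the same for parent and copy, and reads that hit several loci were not counted. What splits the counted reads between parent and copy from library to library was not tested.
Rpl14: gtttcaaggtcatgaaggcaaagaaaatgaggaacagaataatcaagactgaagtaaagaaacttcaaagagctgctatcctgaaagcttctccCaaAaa
Rpl14-ps1: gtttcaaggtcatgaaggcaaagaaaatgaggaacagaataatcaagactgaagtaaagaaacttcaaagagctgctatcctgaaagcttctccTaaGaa
Rpl19: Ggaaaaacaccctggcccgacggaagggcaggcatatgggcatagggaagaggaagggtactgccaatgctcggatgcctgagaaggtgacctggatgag
Rpl19-ps11: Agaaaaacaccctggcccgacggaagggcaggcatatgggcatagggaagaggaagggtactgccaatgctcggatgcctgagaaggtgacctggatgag
Gm10275 (chr10:29698746-29699380) is identical to Rpl12, the protein at the foot of the P stalk, over 634 aligned bases. Gm10275 ranged from 0.592 CPM in Mertk WT 2 to 15.8 CPM in Mertk WT 3, where Rpl12 stood at 47.6 and 33.0 CPM; summed with all copies they gave 48.2 and 49.6 CPM. Gm6472 (chrX:152909505-152910155), a copy of the 40S protein gene Rps7, ranged from 3.15 CPM in Bai1 Tg pos 2 to 20.4 CPM in Mertk WT 2, whose Rps7 levels were 72.5 and 56.2 CPM and whose sums were 78.2 and 80.1 CPM. In both pairs of libraries the one with more copy had less of the member, but Mertk KO 2, with 11.9 CPM of Gm10275, had 49.3 CPM of Rpl12, more than Mertk WT 2.

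**Figure D5:**
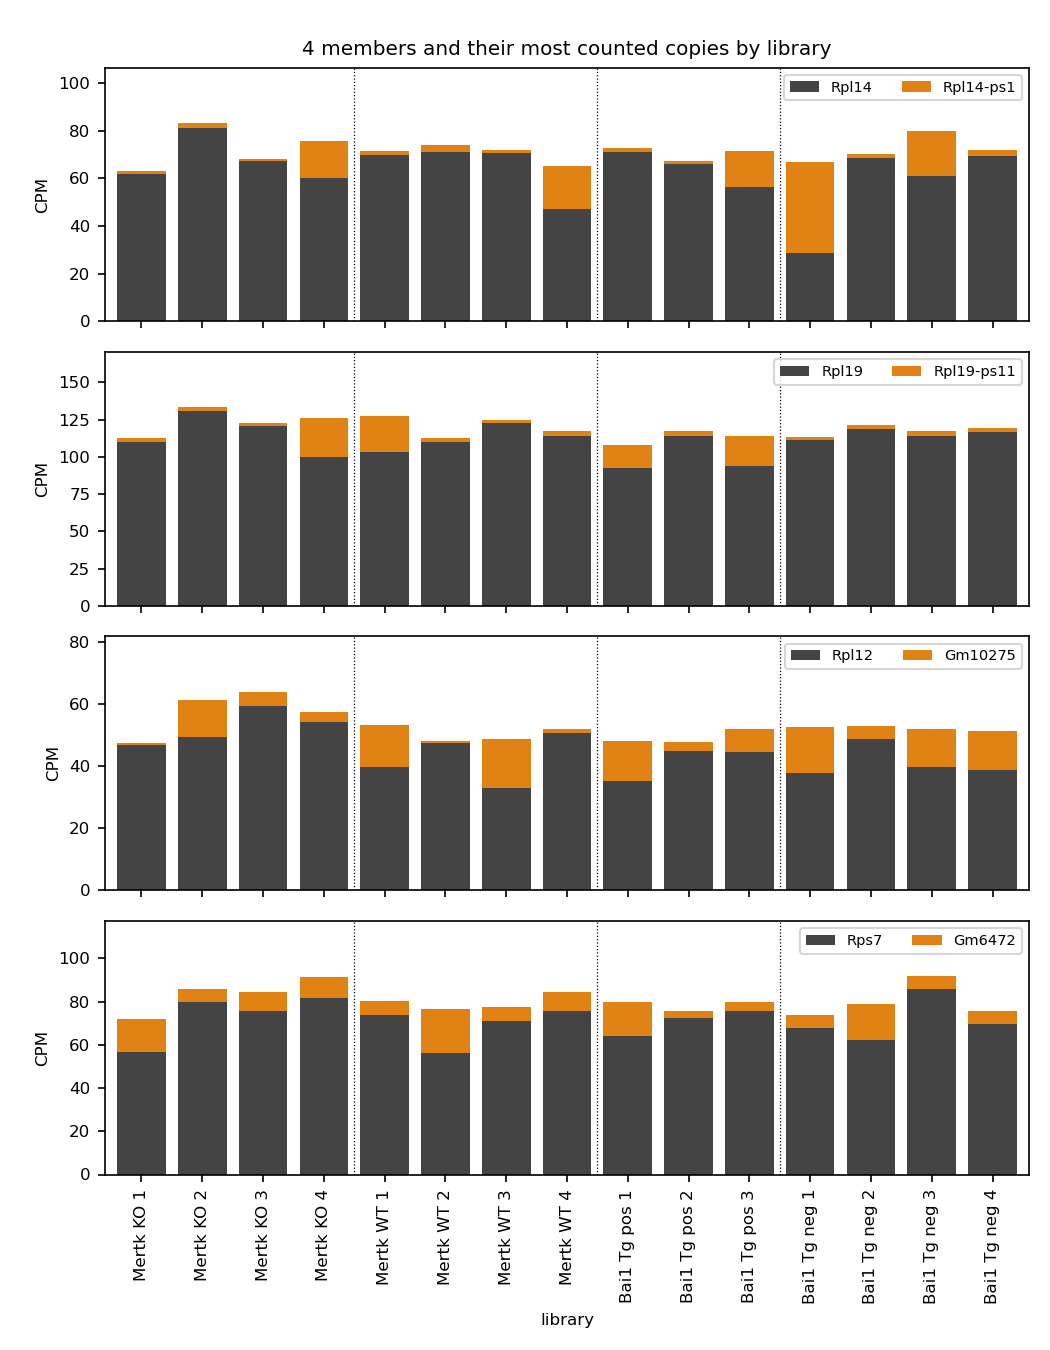
CPM of Rpl14, Rpl19, Rpl12 and Rps7 (dark) with their most counted copy (orange) stacked for each library, dotted lines between groups. Rpl14 has its smallest dark part (28.8 CPM) where Rpl14-ps1 is largest (38.2 CPM, Bai1 Tg neg 1), while Rpl12 in Mertk KO 2 is at 49.3 CPM beside 11.9 CPM of Gm10275; large orange parts occur in libraries of all 4 groups for Rpl14-ps1, Gm10275 and Gm6472.

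Over the whole group, 54 of the 55 members had a stretch of at least 150 bases with at least 95% identity at another locus, and 51 had copies whose counts could be added. The 300 copies added held 51139 counts beside 1240821 in the members, 3.96% of the sum, and in 8 members they held at least 10%: Rpl24 (45.1%), Rplp0 (34.2%), Rpl12 (15.5%), Rps7 (15.0%), Rpl11 (12.5%), Rpl38 (11.4%), Rpl14 (10.6%) and Rpl15 (10.5%). With copies added the coefficient of variation over the libraries was lower for 42 members, higher for 8 and the same for 5, and its median went from 12.8% to 10.7%. The highest was then that of Rpl24, at 39.8%. With copies added, in Bai1 Tg pos, Rpl12 went from 0.01 to -0.07, Rpl14 from 0.17 to -0.04 and Rpl15 from 0.08 to -0.03. Rpl24 moved most, from -0.01 to -0.84 ± 0.260 in Mertk KO (adjusted p = 0.527 in edgeR) and from 0.47 to -0.48 between the control sets. Median fold changes of the members were nearly the same with copies added, 0.11 in Mertk KO, -0.08 in Bai1 Tg pos and 0.06 between the control sets. Members with 7 or more copies had a median level of 54.1 RPKM (26 genes), those with 2 to 6 copies 67.1 (22 genes) and those with at most 1 copy 69.0 (7 genes), with ranges that overlap.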

How the data were processed

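RNA-seq libraries of mouse RPE were put into the 4 groups that their titles name, with 4, 4, 3 and 4 libraries in Mertk KO, Mertk WT and the Bai1 groups with and without transgene. The authors deposited raw fragment counts per Ensembl gene with an exon length for each gene; per the file headers they were made with featureCounts 1.5.0 without a strand option, and the submitters' processing notes name STAR and GRCm38. No source used here gives the annotation release. Reads that hit several loci or genes were not counted, which affects members with copies, and without strand overlapping antisense genes cannot be told apart. Total counts were 9591129 to 20024507; intervals would cover counting error only.

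The members and lists were chosen with earlier results of these data known. Tests used edgeR 4.0.16 in R 4.3.3 (quasi-likelihood, TMM factors, filterByExpr, two-sided, Benjamini-Hochberg adjustment over all genes tested), fitted on the groups compared, and were tested on simulated data; alternatives were DESeq2 1.42.0, a replicate block, other scaling factors, a fit without the low-count filter and leaving out each library. The SE of a fold change was derived from its F statistic. No library pair of a group was alike within sampling noise (chi-square per degree of freedom at least 5.03). RPKM values were computed from the deposited counts. Symbols were matched for 45143 identifiers.

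Copies were found with blastn 2.17.0 in GENCODE M21 transcripts (at least 95% identity over 150 bases). A copy was added to its member if at least 50% of its exon length aligned, a rule chosen after seeing the data, as was the main-transcript length. Named with values were the members past the threshold, the 3 higher and 3 lower of smallest p in each comparison, the P stalk, the 5 highest and lowest per kilobase and the 3 most and least variable members; the copies, the members that did not overlap between groups and those in the paragraphs on copies were named after their values were seen. The lists were 25 other cytosolic ribosomal proteins, paralogs, mitochondrial ribosomal proteins, initiation, elongation and biogenesis factors, TOP and mTORC1 control, p53 targets, and markers of RPE, rods, cones, Müller glia, microglia, endothelium, stroma and erythroid cells.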

Additional observations from a re-analysis of the deposited data

Results flagged for a closer look

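In groups of 4 libraries, 1 library stood far from the other 3 for 13 of 168 groups tested. For independent groups chance gives this in about 1 in 20. The groups here are genes that share the same libraries, so that rate cannot be used to judge the count. Mertk WT 2 was low for Rplp1 (94.8 CPM, others 189 to 202) and Rps10 (40.5 CPM, others 57.1 to 58.5) and high for Rpl4 (282 CPM, others 219.9 to 228) and Rpl32 (81.7 CPM, others 70.6 to 72.0). Mertk KO 1 was low for Rps9 (161 CPM, others 185 to 188), Rps15 (153 CPM, others 182 to 188), Rps20 (56.4 CPM, others 72.2 to 74.2) and Rps21 (68.2 CPM, others 93.9 to 96.6). Mertk WT 4 was low for Rpl14 (47.1 CPM, others 70.0 to 71.2), the library with 18.2 CPM of Rpl14-ps1, and Mertk WT 3 was high for Rpl10a (75.2 CPM, others 50.3 to 51.5). Among the Bai1 Tg neg libraries, number 1 was low for Rpl3 (182 CPM, others 207 to 209), and number 3 was high for Rpl32 (86.3 CPM, others 74.4 to 76.1) and Rpsa (125 CPM, others 118 to 119).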

How the results depend on the processing

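Under the alternatives 520 recomputed values kept their direction and their side of the threshold or moved by less than the spread. With copies added, Rplp0 was no longer called between the control sets (0.15, so that 0 members were called), and in Bai1 Tg pos the fold changes of Rpl12, Rpl14, Rpl15 (-0.03) and Rpl24 (0.20) changed sign. Without a low-count filter 1 member, Rps13, passed in Bai1 Tg pos. Leaving out 1 library gave 0 to 1 called members in Bai1 Tg pos, 0 in Mertk KO and in the difference of effects, and 1 between the control sets; median fold changes ran from 0.07 to 0.18, from -0.22 to -0.03 and from 0.03 to 0.07 in the Mertk, Bai1 and control comparisons. The adjusted p of Rplp0 ranged from 6.27e-10 to 0.674. The share of counts held by the members was 0.537% (nuclear coding counts) or 0.543% (copies added) in Mertk WT and 0.562% or 0.559% in Bai1 Tg neg. Why the low-count filter and Bai1 Tg pos 3 change the call of Rps13 was not tested.

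Correlations of the deviations of same-numbered libraries were -0.27, -0.04, 0.36 and 0.44 in the Mertk set, -0.05 to -0.01 in the Bai1 set and -0.13 to 0.13 between the control sets. Numbers 3 and 4 of the Mertk set thus deviated together and numbers 1 and 2 did not. In that set both libraries of number 4 carry the first tag number 21, and those of numbers 1 to 3 carry 17. No label says what a tag or a number stands for, and the libraries were not treated as pairs. With a replicate block, 0, 0 and 1 members were called in the Mertk, Bai1 and control comparisons and 0 in the difference, with median fold changes of 0.11, -0.12 and 0.07; over all genes the calls went from 30 to 24 in the Mertk set, from 2 to 4 in the Bai1 set, from 58 to 106 between the control sets and from 15 to 12 in the difference. Calls over all genes also differed by test: DESeq2 made 77, 26 and 249, edgeR 30, 2 and 58, and edgeR without the filter 69, 85 and 138.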
